A study of Mus musculus with 12 samples.

Results

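The phospholipase A2 and prostaglandin pathway was followed through 5 genes in a pair of mouse embryonic liver cell lines: Pla2g4a, Ptgs1, Ptgs2, Ptges and Hpgd. Of these, 4 had probe sets among the 12393 genes measured, and Ptgs1 was not analysed here. The genes were selected on differences between the lines 9A1 and 14B3 that had been seen on these same arrays. The difference between the lines within each culture is therefore a description and carries no test for these genes.

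Both lines are of the BMEL type, bipotential liver progenitor cells derived from dpc14 embryos of the cross CBA/J x C57Bl/6J. They divide without limit and are known to form hepatocytes or bile duct cells. Cells of either line were kept in basal culture, clumped into aggregates for 5 days, or grown in Matrigel, a basement membrane gel. Matrigel cultures ran for 10 days, except Matrigel_14B3 replicate 1, labelled as 5 days, and no time was given for basal culture. No other label gives a time for that replicate, so a slip in its label cannot be told from a real 5-day culture. Each of the 6 groups of line and culture had 2 arrays of total RNA. The labels name no engineered change in either line. With 1 line of each name, a line difference describes these isolates and no wider group.

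Cytosolic phospholipase A2, encoded by Pla2g4a, frees arachidonic acid from membrane phospholipids when calcium rises. The cyclooxygenases Ptgs1 and Ptgs2 turn arachidonic acid into prostaglandin H2, and Ptgs2 is the form that growth factors and inflammatory signals induce. The synthase Ptges then makes prostaglandin E2, and the dehydrogenase Hpgd inactivates it. In liver, prostaglandin E2 is known as a signal in regeneration and inflammation.

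Pla2g4a was higher in 14B3 than in 9A1 in every culture. The basal difference was 3.66 log2 units, or 12.6-fold, from a 9A1 level that cannot be told from background, and 2.60 log2 units once 64 was added to each intensity. Ptgs2 was 3.96-fold higher in basal 14B3 than in basal 9A1, or 1.98 log2 units, and 1.62 once 64 was added to each intensity. All its groups but basal 14B3 lay at levels that cannot be told from background. Its arrays overlapped between the lines in aggregates and in Matrigel. Ptges ran the other way, with basal 9A1 1.76-fold above basal 14B3. Averaged over the lines, Ptgs2 and Ptges were lower in aggregates and in Matrigel than in basal culture, but each fall lay mainly in a single line. Against basal culture, Ptgs2 on its brighter probe set was at -2.20 log2 units in aggregates and -2.16 in Matrigel in 14B3, and at -0.18 and -0.31 in 9A1. On its second probe set it was at -3.83 and -2.75 in 14B3, and at -1.29 and -0.69 in 9A1. Ptges was at -0.86 and -0.84 in 9A1, and at -0.30 and -0.16 in 14B3. Hpgd, on its brightest probe set, showed no called change with culture. In bulk RNA, fewer cells of a type and less RNA per cell cannot be told apart.

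Pla2g4a and Ptgs2 lie next to each other on chromosome 1, start to start and on opposite strands. In the GRCm38.p6 RefSeq annotation Pla2g4a spans positions 149829618 to 149961290 on the minus strand and Ptgs2 spans 150100031 to 150108234 on the plus strand. Their start sites lie 138.7 kb apart. Between them the annotation places the long noncoding RNA gene Ptgs2os and the pseudogene Gm19136. Ptges lies on chromosome 2 (30889471 to 30931020) and Hpgd on chromosome 8 (56294552 to 56321046). The promoters of the neighbouring pair are shown because these are the genes that were higher together in basal 14B3. Each run covers the 250 bases before the RefSeq start site and the first 30 after it, 5′ to 3′ on the gene's strand, at chr1:149961261-149961540 for Pla2g4a and chr1:150099781-150100060 for Ptgs2. RefSeq windows were found for all 4 measured genes. Capitals mark matches to the 8 motifs named in the next paragraph.
Pla2g4a: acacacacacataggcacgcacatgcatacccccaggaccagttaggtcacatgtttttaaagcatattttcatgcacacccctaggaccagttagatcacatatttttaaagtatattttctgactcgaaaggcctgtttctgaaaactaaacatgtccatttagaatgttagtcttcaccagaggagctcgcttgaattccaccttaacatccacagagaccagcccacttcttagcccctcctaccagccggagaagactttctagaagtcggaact
Ptgs2: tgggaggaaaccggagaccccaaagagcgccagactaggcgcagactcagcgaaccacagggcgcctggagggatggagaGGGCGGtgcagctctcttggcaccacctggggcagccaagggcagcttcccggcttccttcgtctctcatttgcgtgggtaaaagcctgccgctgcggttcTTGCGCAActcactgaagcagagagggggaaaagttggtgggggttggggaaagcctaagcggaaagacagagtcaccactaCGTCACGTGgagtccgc

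The motifs searched on either strand were the TATA box (TATAAA), the E-box (CACGTG), a short form of the cAMP response element (CGTCA) and a C/EBP palindrome (TTGCGCAA). The AP-1 site (TGANTCA), a form of the NF-kappaB site, the GC box (GGGCGG) and the CCAAT box (CCAAT) were searched as well. The Pla2g4a window held none of them, which says only that these letters are absent from it. The Ptgs2 window held the C/EBP palindrome 69 to 62 bases before the start, a palindrome found in 0.18% of 32851 promoter windows of the same length. It also held a GC box (34.7% of windows), and, after the start, the short cAMP response element (19.9%) and the E-box (6.79%), which overlap each other. The windows differed in base composition, with 43.9% G and C for Pla2g4a and 61.4% for Ptgs2. A match of letters is a description and not evidence of binding.

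Levels are log2 intensities of the brightest probe set of each gene, and no level of a gene is set against that of another. A loose guide to background came from 26 genes of kidney, lung, pancreas, brain, eye, heart and pituitary. Their group means ran from 4.25 to 9.64, with a median gene level of 7.27 and a 90th percentile of 8.69. A level near or below that median cannot be told from background by this guide, and a fold that starts there is uncertain in size. Of 11 hepatic progenitor markers, 5 to 9 had a group mean above 9.64. Keratin 8 lay between 13.60 and 13.93 on all arrays. Sox9 stayed between 6.85 and 8.09. Other markers moved with culture: albumin was at 8.31 and 7.84 in basal 9A1 and 14B3 and at 12.41 to 12.55 in the other groups, and Epcam was at 7.63 and 7.72 in basal culture and at 12.32 to 12.75 elsewhere. Ttr went from 8.88 and 9.15 to between 11.80 and 13.35. Afp differed between the basal lines, at 8 in 9A1 and 10.49 in 14B3. The part of this hepatic shift in the culture and line values below was not tested.

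Pla2g4a was measured by a single probe set. In basal culture its log2 intensity was 5.30 and 5.96 in 9A1 and 9.38 and 9.20 in 14B3. In aggregates it was 6.31 and 6.18 in 9A1 and 7.80 and 7.90 in 14B3. In Matrigel it was 5.88 and 6.36 in 9A1 and 9.01 and 8.49 in 14B3. Every 14B3 array thus lay above every 9A1 array, and the 9A1 levels all lay below the median of the guide genes. The basal means were 5.63 ± 0.47 in 9A1 and 9.29 ± 0.13 in 14B3 (SD, n = 2). The difference of 14B3 minus 9A1 was 3.66 log2 units in basal culture, 1.60 in aggregates and 2.63 in Matrigel. The Matrigel value was 2.37 without Matrigel_14B3 replicate 1, the array labelled 5 days. The 14B3 groups stood in the order basal, Matrigel, aggregate with no overlap between neighbours. The 9A1 groups overlapped from aggregate (6.25) to Matrigel (6.12) and on to basal (5.63).

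**Figure D1:**
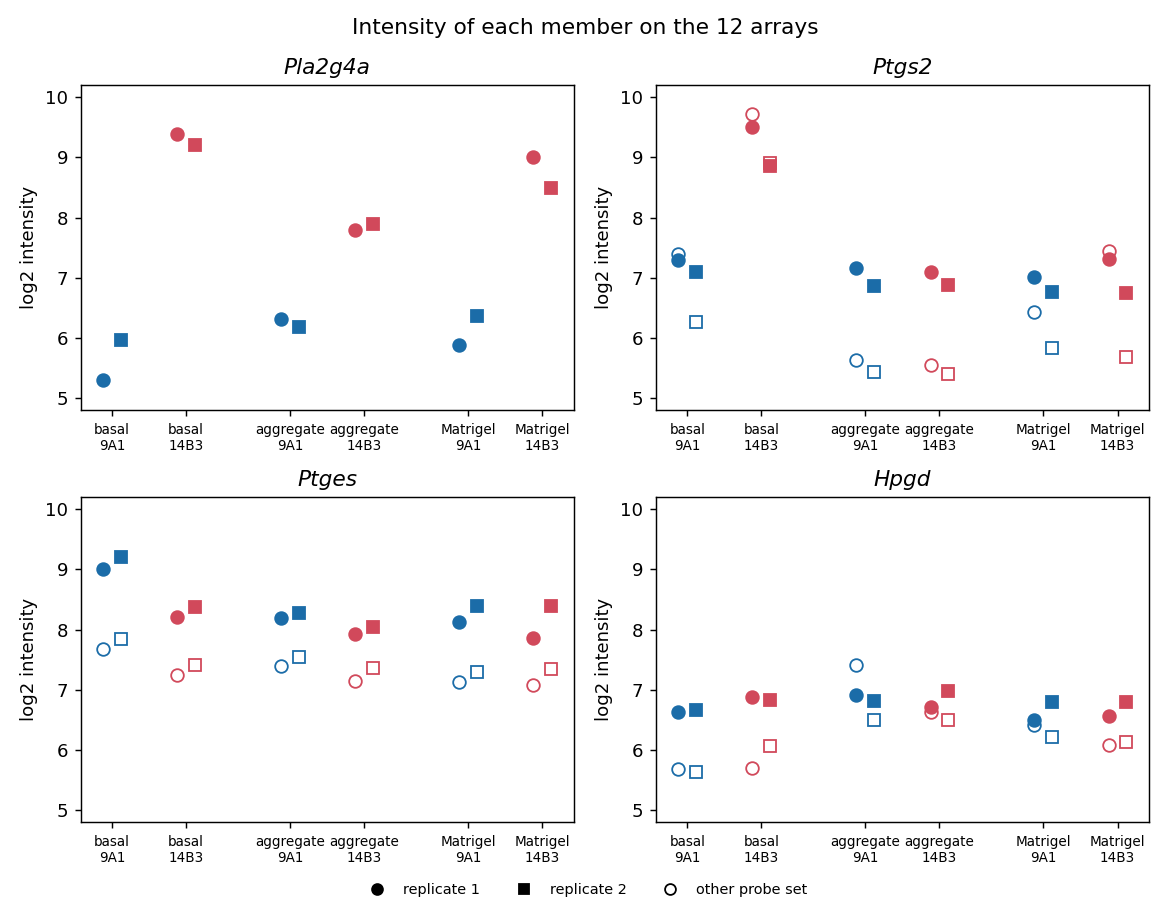
Log2 intensity (vertical axis) of Pla2g4a, Ptgs2, Ptges and Hpgd on the 12 arrays, by culture and line (blue 9A1, red 14B3; circles replicate 1, squares replicate 2). Filled symbols are the brightest probe set and open symbols the gene's other probe set. The red Pla2g4a symbols sit above all blue ones, and on the brightest probe set Ptgs2 stands out only in basal 14B3.

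Ptgs2 had a pair of probe sets. On the brighter one, the log2 intensity in basal culture was 7.29 and 7.10 in 9A1 and 9.51 and 8.86 in 14B3. In aggregates it was 7.16 and 6.87 in 9A1 and 7.09 and 6.88 in 14B3. In Matrigel it was 7.01 and 6.77 in 9A1 and 7.31 and 6.74 in 14B3. Only the basal 14B3 arrays stood apart, and all other groups overlapped their neighbours in order of level, between means of 6.89 and 7.20, just under the guide median. The basal means were 7.20 ± 0.14 in 9A1 and 9.18 ± 0.46 in 14B3 (SD, n = 2). The line difference was 1.98 log2 units in basal culture, -0.03 in aggregates and 0.13 in Matrigel. The second probe set gave 2.49 in basal culture, -0.05 in aggregates and 0.44 in Matrigel. On that probe set Matrigel_14B3 replicate 1, labelled 5 days, read 7.44 and replicate 2, labelled 10 days, read 5.69. On the brighter one, the Matrigel difference of 0.13 turned to -0.15 without replicate 1 of Matrigel_14B3 and to 0.42 without replicate 2.

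Ptges, the inducible prostaglandin E synthase, was highest in basal 9A1. Its log2 intensity in basal culture was 9.01 and 9.20 in 9A1 and 8.21 and 8.37 in 14B3. In aggregates it was 8.20 and 8.28 in 9A1 and 7.92 and 8.05 in 14B3. In Matrigel it was 8.13 and 8.39 in 9A1 and 7.86 and 8.40 in 14B3. Basal 9A1 stood clear of the next group by 0.82, and the other groups overlapped their neighbours from 8.29 down to 7.99. The lines differed by -0.82 in basal culture, -0.26 in aggregates and -0.13 in Matrigel (14B3 minus 9A1, log2). The Matrigel value was 0.14 without Matrigel_14B3 replicate 1 and -0.40 without Matrigel_14B3 replicate 2. The dimmer probe set gave -0.43, -0.22 and 0.00 in the same order.

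Hpgd lay between 6.50 and 6.98 on all 12 arrays of its brighter probe set, under the guide median. The line differences there were 0.21 in basal culture, -0.01 in aggregates and 0.04 in Matrigel, and every group overlapped its neighbour in order of level. The dimmer probe set varied more. It read 5.68 and 5.64 in basal 9A1, 5.71 and 6.07 in basal 14B3, 7.41 and 6.50 in aggregates of 9A1, and 6.64 and 6.50 in aggregates of 14B3. In Matrigel it read 6.42 and 6.22 in 9A1 and 6.09 and 6.13 in 14B3. All aggregate arrays of this probe set lay above all basal ones, a pattern that the brighter probe set lacked.

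Among the 4 measured members, the arrays of the lines did not overlap in basal culture for any gene, with 3 higher and 1 lower in 14B3. Of all genes, 26.9% were higher and 15.2% lower in basal 14B3 by that measure, so separation of 2 against 2 arrays is common. In aggregates 1 member was higher and 1 lower without overlap (18% and 15% of all genes), and in Matrigel 1 was higher and 0 lower (17.2% and 15.5%). A difference of at least 1 log2 unit without overlap was rarer. It held for Pla2g4a and Ptgs2 in basal culture, where 0.662% of all genes were higher in 14B3 to that degree. It held for Pla2g4a alone in aggregates (0.508% of all genes) and in Matrigel (0.888%). The members were selected on this contrast, so these shares are given as context only.

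**Figure D2:**
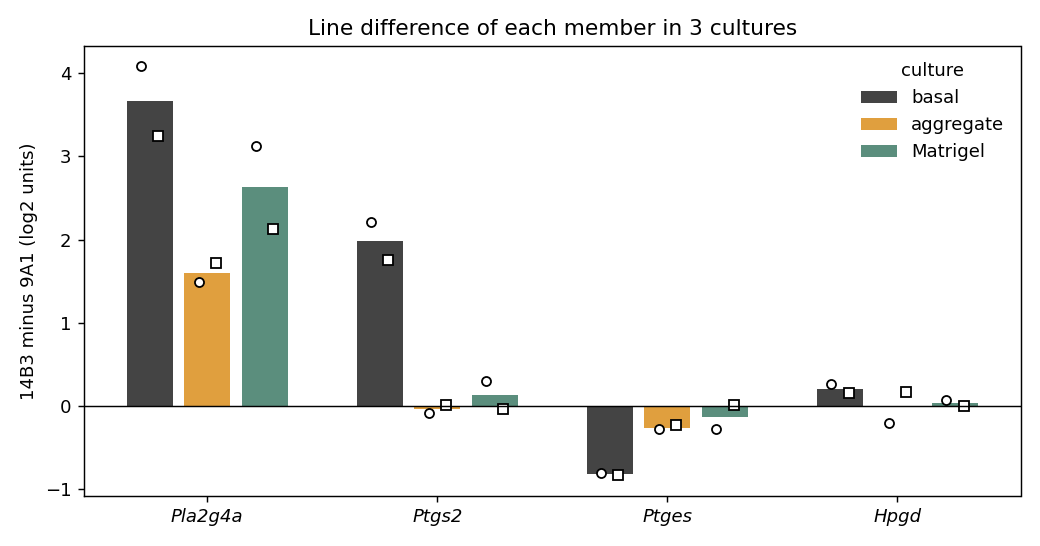
Difference of 14B3 minus 9A1 in log2 units (vertical axis) for the 4 measured genes in basal, aggregate and Matrigel culture. Bars are differences of group means and open symbols the differences of same-numbered arrays (circles replicate 1, squares replicate 2). Pla2g4a lies at 1.49 or more in all cultures, while the Ptgs2 difference is large only in basal culture.

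The region around the neighbouring pair was looked at after these values had been seen. Within 2 Mb of the Ptgs2 start, 10 genes were measured. Of these, 3 were at least 1 log2 unit higher in basal 14B3 and 0 were lower by that much: Pla2g4a, Ptgs2 and Niban1. Pla2g4a and Ptgs2 were chosen on this difference and the window was centred on Ptgs2, so only Niban1 adds to the count. Of all genes, 0.662% were at least 1 log2 unit higher in basal 14B3 without overlap. Niban1, a stress-induced gene (151571373 to 151721432), had group means of 7.53 in basal 9A1 and 10.73 in basal 14B3. Its line difference was 3.21 in basal culture (adjusted p = 2.48e-06), 1.43 in aggregates and 2.52 in Matrigel. The measured genes between Ptgs2 and Niban1 lay between -0.43 (Ivns1abp) and 0.29 (Odr4) in basal culture. Pdc and Prg4, near Ptgs2, were at -0.06 and -0.12.

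**Figure D3:**
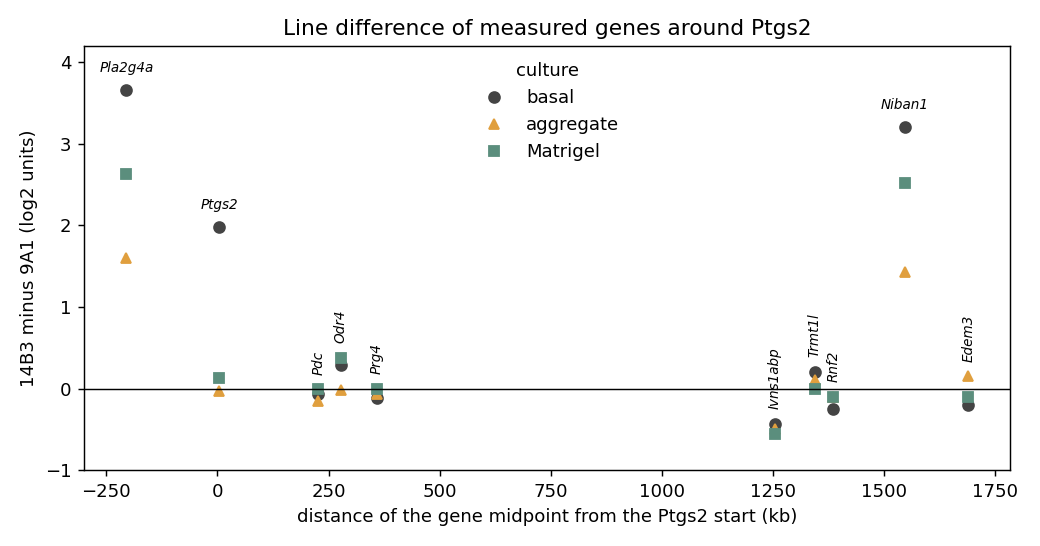
Difference of 14B3 minus 9A1 in log2 units (vertical axis) against the distance of each gene's midpoint from the Ptgs2 start in kb (horizontal axis), for the 10 measured genes within 2 Mb. Symbols give the culture. Pla2g4a, Ptgs2 and Niban1 rise above 1 in basal culture and the genes between Ptgs2 and Niban1 stay near 0.

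Niban1 was also the gene whose pattern over the 12 arrays was most like that of Pla2g4a (Pearson r = 0.951, among 2134 genes with an SD of at least 0.5). The next were Smpdl3b, a phosphodiesterase of membrane lipids (0.929), and Xist, the RNA that silences an X chromosome (0.925). Xist had group means of 8.64 to 8.93 in 9A1 and 11.77 to 11.99 in 14B3. For Ptgs2 the closest were Bcat1, a transaminase of branched-chain amino acids (0.959), Phf10, a chromatin remodelling subunit (0.950), and the claudin gene Cldn6 (0.925). Cldn6 stood at 9.89 in basal 14B3 and between 6.47 and 7.44 in the other groups. For Ptges the closest were the chemokine gene Cxcl5 (0.900), Adamtsl4 (0.890) and the chemokine gene Cxcl1 (0.886). Cxcl5 was at 8.66 in basal 9A1 and at 5.72 or less elsewhere, and Cxcl1 was at 9.01 there and at 6.76 or less elsewhere. Hpgd had no close partner, with Lss at 0.616 as the closest. These likenesses follow the same 6 groups of arrays and are descriptive. The members themselves were loosely related: r was 0.59 for Pla2g4a with Ptgs2, -0.52 for Pla2g4a with Ptges and -0.04 for Ptgs2 with Ptges.

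Culture was then compared, averaged over the lines. A line difference of the same size in each culture cancels in that average, but a difference found mainly in basal culture does not. For Ptgs2 the line difference was 1.98 log2 units in basal culture and -0.03 in aggregates, and for Ptges it was -0.82 and -0.26. The basal levels by which these genes were chosen thus enter their falls below. The p-values of these falls are therefore not independent of that choice. From basal culture to aggregates Ptgs2 fell by 1.19 ± 0.17 log2 units (adjusted p = 8.04e-05 by limma, SE from 4 arrays in each culture). Ptges fell by 0.58 ± 0.13 (adjusted p = 0.00244). Pla2g4a was at -0.41 ± 0.17 (adjusted p = 0.0634, 0.0277 with the replicate block within each line and 0.0534 with the replicate block shared by the lines) and Hpgd at 0.10 ± 0.11 (adjusted p = 0.482). So 2 of 4 members changed, both down, where 46.3% of all genes passed. From basal culture to Matrigel Ptgs2 fell by 1.23 ± 0.17 (adjusted p = 0.00018) and Ptges fell by 0.50 ± 0.13 (adjusted p = 0.0116). Pla2g4a at -0.03 and Hpgd at -0.09 did not pass, against 28.4% of all genes passing. Between Matrigel and aggregates 0 of 4 members passed with limma, and 1, Pla2g4a, had an unadjusted p under 0.05, where 26.7% of genes passed after adjustment. Pla2g4a was the nearest, at 0.38 ± 0.17 (adjusted p = 0.108, 0.0497 with the replicate block within each line and 0.0803 with the shared block).

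Those averages joined unlike lines. Within a line, a change with culture draws on the same group levels by which the genes were chosen, and the comparisons with basal culture share their basal arrays. The values within lines are therefore described with no test. Ptgs2 in 14B3 was at -2.20 ± 0.24 in aggregates and at -2.16 ± 0.24 in Matrigel against basal culture (SE, 2 arrays a group). In 9A1 it was at -0.18 in aggregates and at -0.31 in Matrigel. On its second probe set Ptgs2 was at -3.83 and -2.75 in 14B3, and at -1.29 and -0.69 in 9A1, in the same order. The 9A1 group means of that probe set lay between 5.53 and 6.82, under the guide median. Ptges in 9A1 was at -0.86 ± 0.18 in aggregates and at -0.84 ± 0.18 in Matrigel. In 14B3 it was at -0.30 and -0.16 in the same order. The values on the brighter probe sets restate the order of levels given above, in which basal 14B3 stood apart for Ptgs2 and basal 9A1 for Ptges.

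For Pla2g4a in 14B3, aggregates lay at -1.44 ± 0.24 and Matrigel at -0.55 ± 0.24 against basal culture, and Matrigel lay at 0.90 ± 0.24 against aggregates. The last value was 0.64 without Matrigel_14B3 replicate 1, the array labelled 5 days. In 9A1, aggregates lay at 0.62 ± 0.24 and Matrigel at 0.49 ± 0.24 against basal culture, at levels under the guide median where a change cannot be told from background. The 9A1 value in aggregates ranged from 0.29 to 0.95 when 1 array at a time was left out. Apart from the array labelled 5 days, time in culture and kind of culture cannot be told apart between Matrigel and aggregates.

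**Figure D4:**
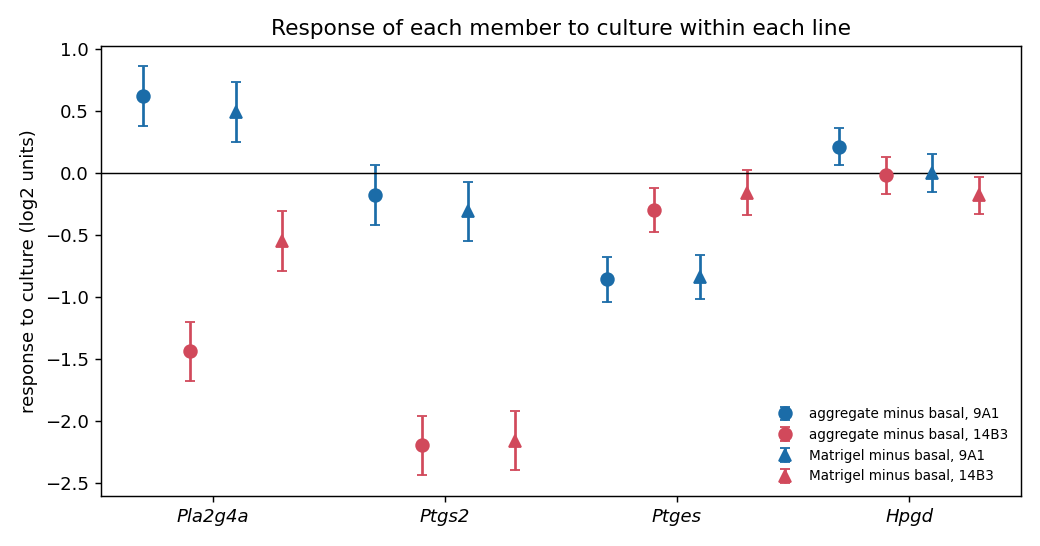
Response to culture in log2 units (vertical axis) of the 4 measured genes within each line (blue 9A1, red 14B3), for aggregates (circles) and Matrigel (triangles) against basal culture. Points are limma estimates from 2 against 2 arrays and bars are 1 standard error. Ptgs2 in 14B3 lies at -2.20 and -2.16, and Ptges in 9A1 at -0.86 and -0.84.

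Hpgd differed between its probe sets here too. The dimmer one was 0.99 ± 0.17 higher in aggregates than in basal culture (adjusted p = 0.000604 over all probe sets) and -0.55 ± 0.17 in Matrigel against aggregates (adjusted p = 0.0385). Its group means lay between 5.66 and 6.95, under the guide median, at levels that cannot be told from background. For Ptgs2 the second probe set fell by 2.56 ± 0.36 in aggregates (adjusted p = 0.000127) and by 1.72 ± 0.36 in Matrigel (adjusted p = 0.00463). The second probe set of Ptges was at -0.19 in aggregates (adjusted p = 0.171) and fell by 0.33 in Matrigel (adjusted p = 0.0392). The direction of Ptgs2 and Ptges against basal culture was thus the same on either probe set, and the call for Ptges in aggregates was not.

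The pathway around these genes was read from 62 other measured genes, from phospholipases to receptors. Few of them differed between the lines. In basal culture 2 were higher and 1 lower in 14B3, 4.84% of the list against 1.9% of all genes (list median 0.06, all genes 0.05). In aggregates 2 were higher and 1 lower (4.84% against 1.53%, medians 0.04 and 0.03), and in Matrigel 3 were higher and 1 lower (6.45% against 3.77%, medians 0.02 and 0.04). No other phospholipase A2 of the 16 measured was called in basal culture or in Matrigel, and the prostanoid receptor list had 0 of 10 genes called in any culture. With so few of all genes called between the lines, lists this short would hold few calls in any case. Ptgir, Ptger2, Ptger3 and Ptgfr also lay under the guide median of 7.27 on every array, at levels that cannot be told from background.

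Ephx2, the soluble epoxide hydrolase that breaks down arachidonate epoxides, was higher in 14B3 in each culture. Its log2 intensity was 7.84 and 8.12 in basal 9A1 and 9.63 and 9.73 in basal 14B3. In aggregates it was 10.74 and 10.57 in 9A1 and 11.82 and 11.61 in 14B3, and in Matrigel it was 9.80 and 9.72 against 11.07 and 11.06. The differences were 1.70 ± 0.14 (adjusted p = 6.99e-05), 1.06 ± 0.14 (0.00225) and 1.30 ± 0.14 (0.000311), with no overlap. Cbr1, a carbonyl reductase that can act on prostaglandins, was also higher in 14B3, by 1.04, 0.83 and 1.07 in basal culture, aggregates and Matrigel (adjusted p = 0.00608, 0.0231 and 0.00254, SE 0.16). Its basal call ended without basal_14B3 replicate 2 (0.091) or basal_9A1 replicate 1 (0.0974). In aggregates it ended without any one of the 4 arrays compared, with adjusted p from 0.0636 to 0.185.

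Ptgr1, a reductase that takes prostaglandin breakdown on after Hpgd, went the other way. Its log2 intensity was 9.34 and 9.26 in basal 9A1 and 8.08 and 7.89 in basal 14B3, and in Matrigel 9.48 and 9.56 against 7.98 and 8.18. The differences of 14B3 minus 9A1 were -1.31 ± 0.27 (adjusted p = 0.0339) and -1.44 ± 0.27 (adjusted p = 0.0111). In aggregates it was at -0.85 (adjusted p = 0.268). The basal call ended without any one of 8 arrays, with adjusted p from 0.051 to 0.259. The Matrigel call ended without Matrigel_14B3 replicate 1 (0.0901), Matrigel_9A1 replicate 1 (0.0686) or Matrigel_9A1 replicate 2 (0.0757). The prostaglandin transporter gene Slco2a1 was 0.83 higher in 14B3 in Matrigel (adjusted p = 0.0498), a call lost in 9 of 12 fits that left out 1 array. Pla2g12b, listed here by its membership of the phospholipase A2 family and not by a measured activity, was at -1 in aggregates (adjusted p = 0.0258). The Pla2g12b call was lost without aggregate_14B3 replicate 2 (0.185), aggregate_9A1 replicate 1 (0.127) or aggregate_9A1 replicate 2 (0.0851). Ptger4, the receptor for prostaglandin E2 of type EP4, was at -0.84 in basal culture (adjusted p = 0.131).

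More of these genes were called between cultures, with 4 against 4 arrays, than between lines, with 2 against 2. From basal culture to aggregates 15 of 62 genes rose and 8 fell, 37.1% of the list against 46.3% of all genes (medians 0.21 and 0.10). Without aggregate_14B3 replicate 1, 24 rose and 8 fell. With the replicate block shared by the lines 25 rose and 9 fell, 54.8% of the list against 54.4% of all genes, so the lower share of the list rests on the fit. The strongest rises were Pla2g12b (2.64 ± 0.14, adjusted p = 2.37e-08), Prxl2b, a prostaglandin F2-alpha synthase (2.45 ± 0.16, 1.64e-07), Cbr1 (2.44 ± 0.11, 8.08e-09) and Ephx2 (2.35 ± 0.10, 5.16e-09). Pla2g12b went from 7.25 to 7.53 on the basal arrays to 9.17 to 10.55 on the aggregate arrays. The strongest falls were Anxa1, the annexin known as an inhibitor of phospholipase A2 (-3.22 ± 0.17, adjusted p = 2.29e-08), and Fads1, the desaturase that makes arachidonate (-1.74 ± 0.15, 1.74e-06). Plaa, a phospholipase A2 activating protein, fell by 0.86 and Pla2g12a fell by 0.72. Of 8 prostaglandin synthases 3 rose and 0 fell, and of 10 genes on the prostanoid receptor list 1 rose, Ptger4.

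From basal culture to Matrigel 10 genes rose and 4 fell (22.6% against 28.4%, medians 0.03 and -0.04). Pla2g12b (2.25), Cbr1 (1.90), Prxl2b (1.74) and Ptger4 (1.53 ± 0.17, adjusted p = 3.66e-05) led the rises. Ptger4 read 7.90 and 8.28 in basal 9A1, 7.24 and 7.27 in basal 14B3, 9.60 and 9.15 in Matrigel 9A1 and 9.03 and 9.02 in Matrigel 14B3. It was thus the 1 gene of 10 on the prostanoid receptor list that was called, above every basal array in Matrigel. Fads1, the leukotriene receptor gene Cysltr1 and Fads2 fell by 0.80, 0.76 and 0.41. The call of Fads2 ended without Matrigel_9A1 replicate 2 (0.0611), basal_14B3 replicate 1 (0.0844) or basal_9A1 replicate 1 (0.0698).

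Against aggregates, Matrigel cultures had 6 genes higher and 14 lower (32.3% against 26.7%, medians -0.22 and -0.10), and 8 and 25 with the replicate block shared by the lines. Anxa1 was 2.82 ± 0.17 higher (adjusted p = 1.67e-06): its aggregate arrays lay between 8.54 and 9.42 and its Matrigel arrays between 11.48 and 12.30. Fads1, Ptger4 and the phospholipase gene Plaat3 were higher by 0.95, 0.80 and 0.74. Ephx1 (-0.90), Prxl2b (-0.71), the lysophospholipid acyltransferase gene Lpcat3 (-0.66) and Ptgr2 (-0.58) were lower. Of 13 genes of the lipoxygenase and epoxide branches 6 were lower and 0 higher.

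**Figure D5:**
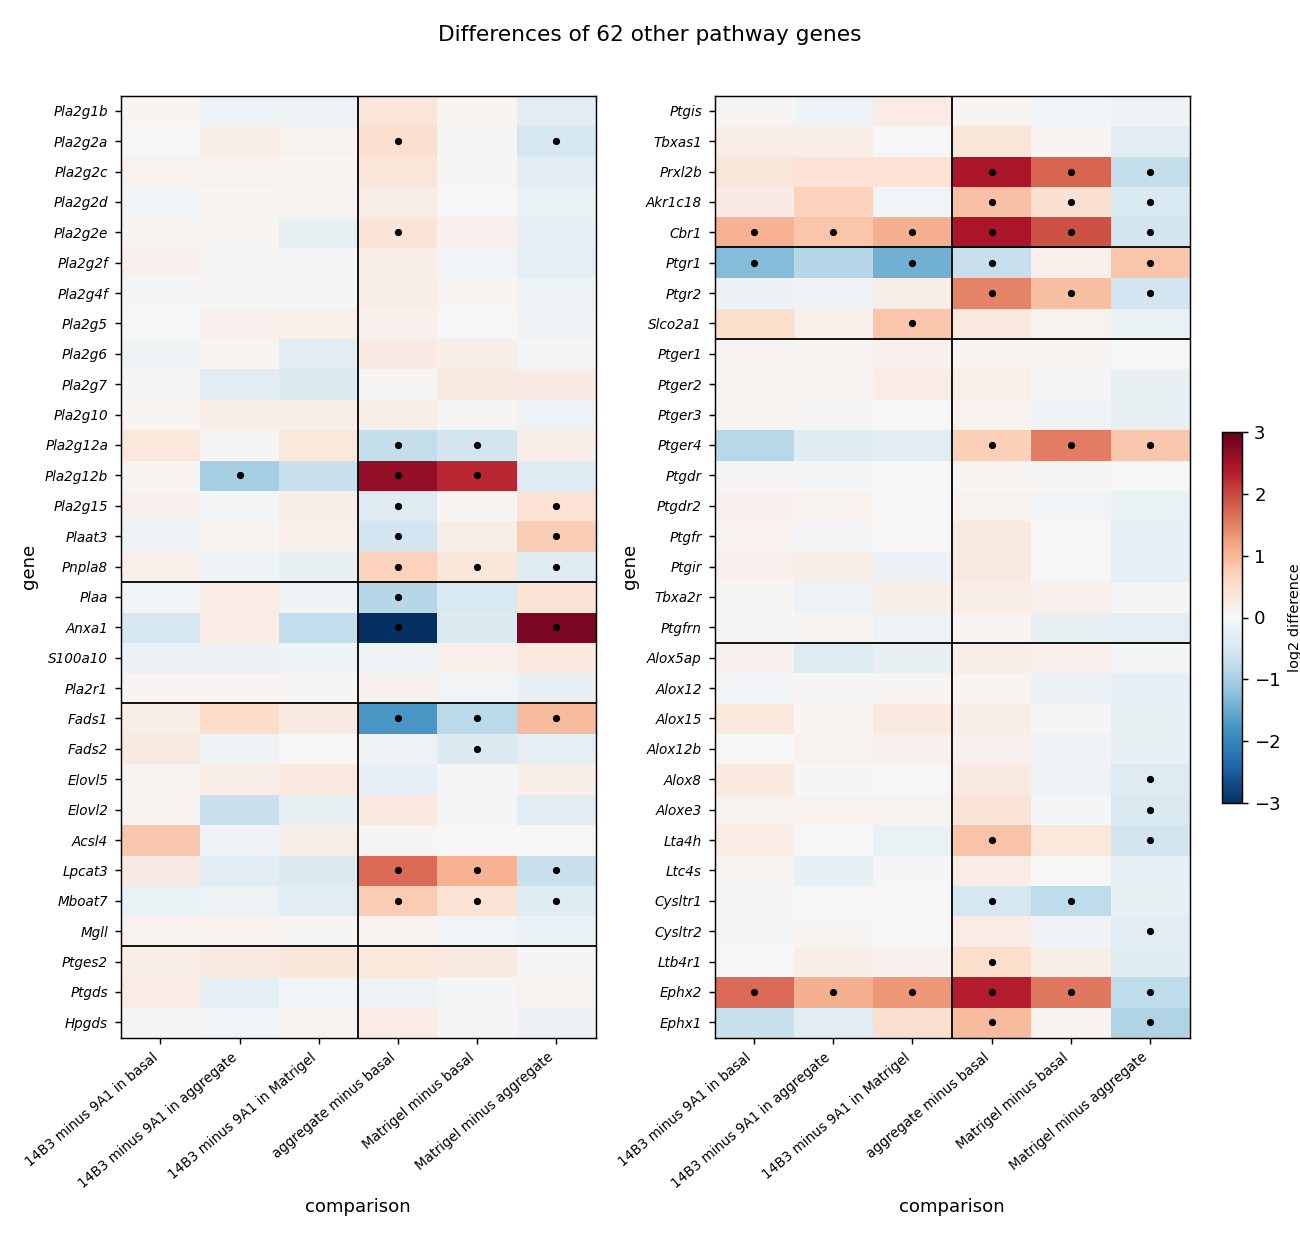
Log2 differences of 62 other measured pathway genes (rows, in both panels) in 6 comparisons (columns), coloured from -3 to 3; Anxa1 in aggregates, at -3.22, takes the end colour. Black dots mark an adjusted p below 0.05 by limma, and horizontal lines separate gene groups. The 3 line comparisons hold few dots and the culture comparisons many.

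Markers of other cell types were measured beside these genes, since macrophages and blood cells also make prostaglandins. Of 7 macrophage and blood markers, 1 or 2 had a group mean above the guide genes' highest value, Cd14 and Csf1r, while Ptprc, which marks blood cells, stayed at or below 6.52 and Adgre1 at or below 7.42. The summed intensity of that list was 2610 to 3450 in basal 9A1 and 2770 to 3110 in basal 14B3. In aggregates it was 4750 to 5290 in 9A1 and 2800 to 2810 in 14B3, and in Matrigel 3530 to 3640 in 9A1 and 2390 to 2450 in 14B3. It thus overlapped between the lines in basal culture and was higher in 9A1 in the other cultures. The widest gap there was in Csf1r, at 11.73 in 9A1 and 9.94 in 14B3 in aggregates, and 10.58 and 9.32 in Matrigel. The list did not move as a whole. In aggregates Cd14 (9.94 and 10.27), Cd68 (6.72 and 6.75) and Lyz2 (7.86 and 7.93) were higher in 14B3. In Matrigel Cd68 (7.18 and 7.74) and Lyz2 (7.60 and 7.69) were higher in 14B3. Of 6 endothelial markers 0 passed the guide's highest value in any group. Cdh5 and Vwf differed between the lines in Matrigel, at 7.12 and 5.38 in 9A1 and 8.67 and 6.25 in 14B3. The other endothelial markers differed little there: Pecam1 was at 6.29 in 9A1 and 6.33 in 14B3, and Kdr at 8.34 and 8.47. Tek was at 5.61 and 5.79, and Tie1 at 5.59 and 5.62. The endothelial list's summed intensity in Matrigel was 604 to 769 in 9A1 and 908 to 1160 in 14B3. Of 8 stellate and mesothelial markers only Msln passed it. The part of these cells in the results was not tested.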

How the data were processed

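The authors deposited RMA signal intensity per probe set, made with R 2.3.1 and RMA per the submitters' processing notes. The values run from 14.4 to 27318 on a linear scale, so log2 was taken before any test. Medians of the 12 arrays were 268 to 281, and with 2 arrays per group the array number sets the precision. Of 22690 probe sets, 20380 carried 1 gene in GEO's platform annotation, 691 several and 1555 none, and 64 were controls. Each of 12393 genes was represented by its brightest probe set, and 12369 were matched to RefSeq by gene ID. A genome build was not given in the sources used here.

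A mean for each of 6 groups was fitted with limma 3.58.1 (lmFit and eBayes, R 4.3.3) with 6 residual degrees of freedom. Tests were two-sided, with Benjamini-Hochberg adjustment over all genes at 0.05. The design calls the arrays biological duplicates and says no more on how they were kept apart, so p-values measure the spread between these arrays. Replicate numbers paired the arrays: differences of replicate 2 minus replicate 1 correlated between groups in all 15 pairs of groups (r from 0.101 to 0.644). The block is therefore given where it changes a member's call, and beside some of the pathway counts. Data were simulated for aggregates against basal culture over 12393 genes, with 200 genes set to change. There 48.2% of changes of 0.5 log2 units and 92.2% of changes of 1 were called, with 4.26% false calls. In the real comparison 46.3% of all genes were called, a far larger share, so these rates need not hold for it.

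Within a line, tests of members were not used, because they rest on the levels by which the members were chosen. The members and lists were chosen with earlier results of these data known. Named pathway genes were up to 4 per contrast and direction that passed without overlap between arrays, by size of change, and for each member the 3 genes with the highest Pearson r over the 12 arrays. Of 74 genes on the pathway list 62 were measured. Alternatives were the replicate block, quantile normalization, log2(value + 64), the mean of probe sets, genes above the median level, 2 cultures alone, and leaving out each array. Promoter windows came from RefSeq (GRCm38.p6). Figures used Python 3.11.15 and matplotlib 3.10.9.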

Additional observations from a re-analysis of the deposited data

Results flagged for a closer look

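From basal culture to aggregates, Pla2g4a had values of opposite sign in the lines, 0.62 log2 units in 9A1 and -1.44 in 14B3, with no overlap between the arrays compared in each line. The difference between these values was not tested, since it is built from the line differences by which the gene was chosen. The 9A1 value lies at levels that cannot be told from background by the guide genes and ranged from 0.29 to 0.95 when 1 array at a time was left out. By the same measure 1.59% of the 12393 genes had values of opposite sign.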

How the results depend on the processing

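For members, leaving out 1 array at a time gave the following ranges. Pla2g4a ran from -0.58 to -0.25 for aggregates against basal culture, passing without basal_9A1 replicate 1 (adjusted p = 0.0135) and without either Matrigel_14B3 array (0.0481), and from 0.25 to 0.51 for Matrigel against aggregates, passing without Matrigel_14B3 replicate 2 (0.0482). With the replicate block within each line these values of Pla2g4a, -0.41 and 0.38, passed (0.0277 and 0.0497), and with the replicate block shared by the lines neither did (0.0534 and 0.0803). Neither block changed the call of another member in the contrasts averaged over the lines. The former also passed with quantile normalization (-0.44, 0.0288), with log2(value + 64) (-0.47, 0.00769) and with 2 cultures alone (-0.41, 0.0381). The line difference ranged from 3.33 to 3.99 (Pla2g4a) and 1.66 to 2.31 (Ptgs2) in basal culture, and in Matrigel from -0.15 to 0.42 (Ptgs2), -0.40 to 0.14 (Ptges) and -0.11 to 0.18 (Hpgd). With log2(value + 64) the Pla2g4a line difference was 2.60 in basal culture, 1.07 in aggregates and 1.88 in Matrigel, and that of Ptgs2 in basal culture 1.62, since a pseudocount shrinks low levels. With the mean of probe sets Hpgd passed in aggregates against basal culture (0.54, 0.00158) and in Matrigel against aggregates (-0.37, 0.0291), with a line difference of -0.20 in aggregates, because its probe sets disagree. Pathway genes called between the lines ranged from 1 to 3 in basal culture, 1 to 3 in aggregates and 2 to 5 in Matrigel. For Matrigel against aggregates, 33 were called with the replicate block shared by the lines against 20. With a change of at least 1 log2 unit the culture counts were 8 (aggregates against basal), 6 (Matrigel against basal) and 1 (Matrigel against aggregates). The falls of Ptgs2 and Ptges against basal culture, averaged over the lines, passed in every alternative fit that gave a value, with adjusted p of Ptges in Matrigel up to 0.047. The basal levels by which Ptgs2 and Ptges were chosen enter each of those fits, so passing again is not independent of that choice. On its dimmer probe set alone Ptges did not pass in aggregates (0.171). No member's mean level passed the filter on the median gene level, so that alternative gave no value for members. No called value reversed its direction.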
